A study of Mus musculus with 44 samples.

Results

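Macrophages (MFs) sorted as Ly6C+ F4/80low from injured muscle at day 2 were compared between Pparg knockout (KO) and wild-type (WT) mice, over all genes. The comparison held every untreated array whose title named this subset and day, 5 from KO and 6 from WT, which is 11 of the 44 arrays of the series, and it read 19938 genes. The WT mice were labelled C57B6/J, and the KO mice C57B6/J, PPARg fl/fl, LysM Cre+. In both groups the tibialis anterior was injected with cardiotoxin, CD45+ cells were collected on magnetic beads, and the subset was sorted with Ly6C and F4/80 antibodies, with no drug given. From each sample 150 ng of RNA was amplified and labelled. The Cre of this line is expressed from the Lyz2 locus, which is active in myeloid cells in general, so the loss is not limited to this subset or day, and the share of sorted cells that lost the receptor is not given in the sources used here. Mice with the floxed allele alone or with Cre alone were not analysed here. The design text of the series speaks of 3 animals while its groups hold 3 to 6 arrays labelled as biological replicates, and no label ties an array to an animal, so the p-values measure the spread between these arrays, which may be technical.

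PPARγ, the product of Pparg, is a nuclear receptor that pairs with an RXR receptor, binds DNA, and is switched on by fatty acids and their derivatives. In MFs it is known for genes of fatty acid uptake, transport and storage. Ly6C+ cells of injured muscle are recently arrived, inflammatory monocyte-derived cells, which give way to Ly6C- F4/80high cells of the repair phase.

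Values are log2 expression from RMA, a method that corrects background, quantile normalizes and summarizes probes, so a difference of 1 is a factor of 2. A gene passed where the Benjamini-Hochberg adjusted p of limma's moderated test was below 0.05 over all 19938 genes, and every adjusted p below is of that kind. Differences are KO minus WT unless another order is given, and the words rose and fell are used of genes that passed. The precision of each value is limited by how many arrays stand behind it.

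Markers of monocytes and MFs were read at a high level, which does not by itself test the Ly6C+ F4/80low gate. Ccr2, Adgre1 (the gene of F4/80), Itgam, Cd68, Csf1r, Fcgr1, Vcan, Plac8 and Ptprc (the gene of CD45) each had a mean at or above percentile 97.6 of all genes, and none of them passed between the genotypes. The probe sets shared by Ly6c1 and Ly6c2 read 11.74 to 12.34 over the 11 arrays, with KO minus WT of 0.11 and 0.07. The WT arrays did not form 1 set. Over all genes, pairs among the arrays labelled WT 1 to 3 correlated at r = 0.994, pairs among WT 4 to 6 at 0.976 to 0.987, and pairs among KO at 0.991 to 0.997. WT replicate 5 stood apart from the other 10 arrays, with r of 0.976 to 0.982 to each, and on the first principal component (27.7% of the variance) it lay at 44.1 and the others between -12.0 and 0.6. For that reason results were also read against WT 1 to 3 and against WT 4 to 6 (n = 3 each) and without WT replicate 5.

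Lyz2, which encodes the main lysozyme of MFs and carries the Cre of this line, went against the label of part of the WT group. It read 9.66, 9.53, 9.40, 9.68 and 9.18 on the KO arrays, 8.94, 8.67 and 8.99 on the arrays labelled WT 1 to 3, and 13.02, 12.64 and 12.78 on WT 4 to 6. The arrays labelled WT 1 to 3 thus lay below all KO arrays, and WT 4 to 6 lay far above them with no overlap. KO minus WT over all 6 WT arrays was -1.35 (SE 0.64, adjusted p = 0.29) and did not pass. Against the arrays labelled WT 1 to 3 it was 0.62 (adjusted p = 0.0013), and against WT 4 to 6 it was -3.33 (adjusted p = 2.5e-21). Over the whole series, the arrays above included, Lyz2 was low on all 18 KO arrays (9.07 to 9.96) and high on 20 of 26 WT arrays (12.64 to 13.19). The other 6 WT arrays, at 8.67 to 9.29, were replicates 1 to 3 of the Ly6C+ and of the Ly6C- group of day 2. The labels were kept as deposited. Every direction drawn from all 6 WT arrays, or from the arrays labelled WT 1 to 3, carries this limit, and the genotype of those arrays was not tested.

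Lyz1, the second lysozyme gene, is adjacent to Lyz2 on chromosome 10 and was read in the opposite pattern. It was 12.46, 12.47, 12.39, 12.09 and 12.48 on the KO arrays, 12.005, 12.07 and 11.84 on the arrays labelled WT 1 to 3, and 10.29, 9.95 and 9.998 on WT 4 to 6. All KO arrays lay above all WT arrays, and the arrays labelled WT 1 to 3 lay much closer to KO than to WT 4 to 6. Lyz1 rose by 1.35 (SE 0.30, adjusted p = 0.013), by 0.41 against the arrays labelled WT 1 to 3 (adjusted p = 0.032) and by 2.30 against WT 4 to 6 (adjusted p = 1.95e-16). The 130 bases that precede the transcription start of each gene, on the minus strand of GRCm38.p6 in RefSeq's table, are shown because the pair is so alike, and capitals mark the 10 positions at which they differ (92.3% identity).
Lyz2, chr10:117282273-117282402: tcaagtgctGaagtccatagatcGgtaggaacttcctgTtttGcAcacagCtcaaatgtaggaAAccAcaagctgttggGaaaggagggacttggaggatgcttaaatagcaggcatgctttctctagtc
Lyz1, chr10:117292869-117292998: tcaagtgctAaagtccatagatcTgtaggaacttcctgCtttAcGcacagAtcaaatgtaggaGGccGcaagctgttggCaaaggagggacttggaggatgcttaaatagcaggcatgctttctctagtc
The stretch shown lies before the transcript, and the probe sequences were not compared. Probes of paralogs can read both transcripts, so the split of signal between Lyz1 and Lyz2 is uncertain.

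Pparg itself did not differ. It read 10.49, 10.54, 10.25, 10.40 and 10.26 on the KO arrays and, on the WT arrays, from 10.13, 9.95 and 10.10 in replicates 1 to 3 to 10.22, 11.004 and 10.46 in replicates 4 to 6. The KO arrays lay inside the WT range, and KO minus WT was 0.08 (SE 0.12, adjusted p = 0.82), or 0.33 against the arrays labelled WT 1 to 3 and -0.18 against WT 4 to 6 (adjusted p = 0.076 and 0.55). Where its probes lie relative to the deleted part is not given in the sources, so Pparg is no check of the deletion here.

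Over all genes, 374 of 19938 (1.88%) passed with all 6 WT arrays, 217 higher in KO (1.09%) and 157 lower (0.787%), and 3104 had an unadjusted p below 0.05. The split moved to 222 higher and 87 lower when arrays were centred on their medians. The differences were small: their median size was 0.40, 59 genes exceeded 1.5-fold and 8 exceeded 2-fold. Against the arrays labelled WT 1 to 3, 2252 genes passed (11.3%; 5.93% higher, 5.36% lower), and against WT 4 to 6, 480 passed (2.41%; 1.13% higher, 1.27% lower). In this fit the WT sets differed from each other by more genes than KO differed from either, with 2414 passing between them (12.1%). That order did not hold without WT replicate 5, where 2719 genes passed against the arrays labelled WT 1 to 3 and 1938 between the sets. With array weights the counts were 4077 and 1334. Of the 374 genes, 230 passed only against the arrays labelled WT 1 to 3, 52 only against WT 4 to 6, and 8 against neither set alone.

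A set of 84 genes (0.421%) passed against both WT sets in the same direction, 60 higher in KO (0.301%) and 24 lower (0.120%), and all 84 were among the 374. In 51 of the 84 the 5 KO arrays did not overlap the 6 WT arrays, as in 301 of all genes (1.51%). A further 26 genes passed against both sets in opposite directions, Lyz2 among them. Without WT replicate 5 the 84 genes became 13, of which 12 were among the 84, and all 84 kept their direction against both sets. The kept direction is no independent support, since the 84 were chosen by direction on these arrays and the other arrays stayed in the fit. The 12 were Gdf3 and Ank, lower in KO, and Gpnmb, Pf4, Htr2b, Psmb6, Acp5, Fabp5, Plxnd1, Apold1, Lyz1 and Hebp1, higher in KO. Without that array 296 genes passed against all WT, 207 of them among the 374. A fit of these 11 arrays alone, which estimates the spread from them and not from the whole series, passed 13 genes with all WT and 10 against both sets. In the plot of all genes against each WT set both axes share the KO arrays, so it is read for the place of single genes.

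**Figure D1:**
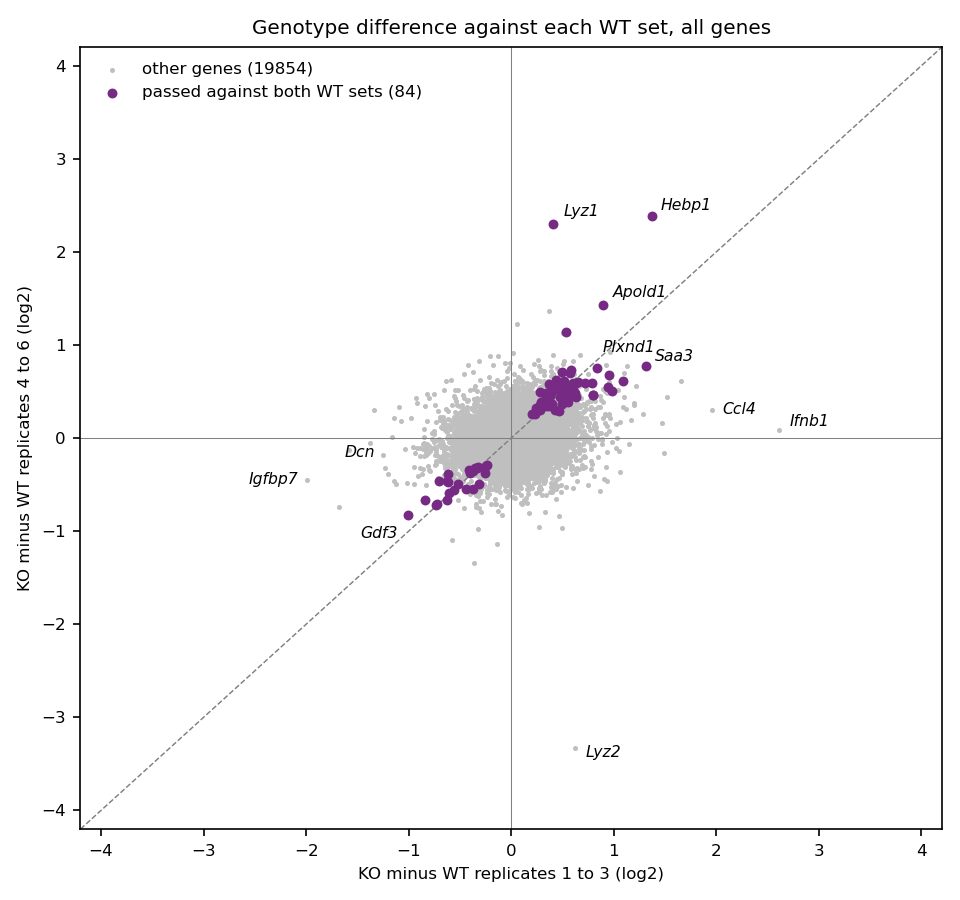
KO minus WT (log2) against the arrays labelled WT replicates 1 to 3 (horizontal axis) and against WT replicates 4 to 6 (vertical axis) for all genes, 1 point per gene, with the 84 genes that passed against both sets in purple and the dashed line marking equal differences. Gdf3 lies at -1.01 and -0.82 and Apold1 at 0.89 and 1.43, while Ccl4, Ifnb1, Igfbp7 and Dcn differ mainly along the horizontal axis and Lyz2 lies at 0.62 and -3.33; the axes share the KO arrays.

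Among the 88 genes named by rule, 63 passed, and 10 of these passed under each of the 23 other settings tried for the difference with all WT arrays, 5 lower and 5 higher in KO. This holds for that difference only: without WT replicate 5, Adam19, Ndnf, Pros1, Zfp54, Saal1 and Saa3 did not pass against WT 4 and 6 (adjusted p from 0.052 to 0.11). Of the 63, 34 passed whichever single array was left out. The rest, among them Ep300, Acaa2, Acaca, Ctsl, Gaa, Arg1, Clec7a, Plau, Mmp14, Hk1, Ccl3, Ccl4, Fosb, Jund, Dusp1, Emcn, Flt1, Pecam1, Dcn, Igfbp7, Tm4sf1, Xcr1, Brk1, Mir29a and Id3, lost the call without at least 1 array, with an adjusted p of up to 0.14 (Mmp14 without WT replicate 1). Gdf3, a secreted ligand of the TGF-β family, had the smallest adjusted p of the genes lower in KO. It read 7.41, 7.38, 7.24, 7.32 and 7.24 on the KO arrays against 8.28, 8.15 and 8.55 on the arrays labelled WT 1 to 3 and 8.41, 7.92 and 8.10 on WT 4 to 6. Every KO array lay below every WT array, and the WT sets overlapped. Gdf3 fell 1.89-fold, by 0.92 on the log2 scale (SE 0.11, adjusted p = 2.4e-06), with -1.01 against the arrays labelled WT 1 to 3 and -0.82 against WT 4 to 6.

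Adam19, a membrane-bound metalloprotease that sheds growth factors from the cell surface, was 8.17, 8.65, 8.07, 8.33 and 8.48 in KO and 8.99 to 9.14 in WT (median 9.05). The groups did not overlap, and the KO arrays spread more widely than the WT arrays. Adam19 fell by 0.73 (SE 0.13, adjusted p = 0.0013), with -0.74 and -0.72 against the WT sets. Pros1 encodes protein S, an anticoagulant that also bridges dying cells to the receptors MFs use to engulf them. Its KO arrays read 8.03, 8.09, 8.18, 8.16 and 8.10, below the WT range of 8.49 to 8.97 (median 8.68), and it fell by 0.60 (SE 0.11, adjusted p = 0.0019).

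Ndnf, a secreted glycoprotein first described in neurons, read 6.56, 6.75, 6.56, 6.44 and 6.68 in KO and 6.995 to 7.61 in WT (median 7.24). It fell by 0.65 (SE 0.10, adjusted p = 1e-04). Zfp54, a zinc finger gene, read 5.59, 5.72, 5.70, 5.67 and 5.84 in KO and 6.04 to 6.52 in WT (median 6.26), and fell by 0.59 (SE 0.09, adjusted p = 0.00027). For both genes all KO arrays lay below all WT arrays.

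Of the 5 stable genes higher in KO, Plxnd1, a semaphorin receptor, had the smallest adjusted p. It read 11.18, 11.20, 11.19, 11.23 and 11.22 in KO, 10.34, 10.38 and 10.38 on the arrays labelled WT 1 to 3, and 10.61, 10.24 and 10.51 on WT 4 to 6. The KO arrays formed a narrow band well above every WT array. Plxnd1 rose 1.73-fold, by 0.79 (SE 0.07, adjusted p = 1.1e-09), with 0.84 and 0.75 against the WT sets.

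Apold1, an early response gene with a domain like that of apolipoprotein L, read 8.38, 8.58, 8.71, 8.24 and 8.46 in KO, 7.38, 7.70 and 7.67 on the arrays labelled WT 1 to 3, and 7.04, 6.85 and 7.24 on WT 4 to 6. The 3 sets did not overlap, with the arrays labelled WT 1 to 3 in the middle. Apold1 rose 2.23-fold, by 1.16 (SE 0.14, adjusted p = 6.4e-07), with 0.89 and 1.43 against the WT sets.

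Saa3 encodes serum amyloid A3, an acute phase protein made by MFs in inflamed tissue. It read 7.82, 8.02, 7.73, 7.96 and 8.48 in KO, 6.76, 6.58 and 6.72 on the arrays labelled WT 1 to 3, and 7.08, 7.42 and 7.18 on WT 4 to 6. Every KO array lay above every WT array, the highest being KO replicate 5, and the WT sets did not overlap. Saa3 rose 2.06-fold, by 1.05 (SE 0.17, adjusted p = 0.0006), with 1.32 and 0.78 against the WT sets.

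Saal1, the gene next to Saa3 in gene order on chromosome 7, read 7.99, 7.92, 7.91, 7.71 and 7.74 in KO and 7.02 to 7.44 in WT (median 7.28). It rose by 0.60 (SE 0.09, adjusted p = 7.7e-05). Acp5, the tartrate-resistant acid phosphatase of osteoclasts and tissue MFs, read 10.19, 10.11, 10.35, 10.21 and 9.96 in KO and 9.25 to 9.76 in WT (median 9.50). It rose by 0.66 (SE 0.07, adjusted p = 2.9e-07), with 0.58 and 0.73 against the WT sets. Neither gene had an overlap between the groups, and in the plot of the 10 stable genes the KO arrays form a separate cluster in each row.

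**Figure D2:**
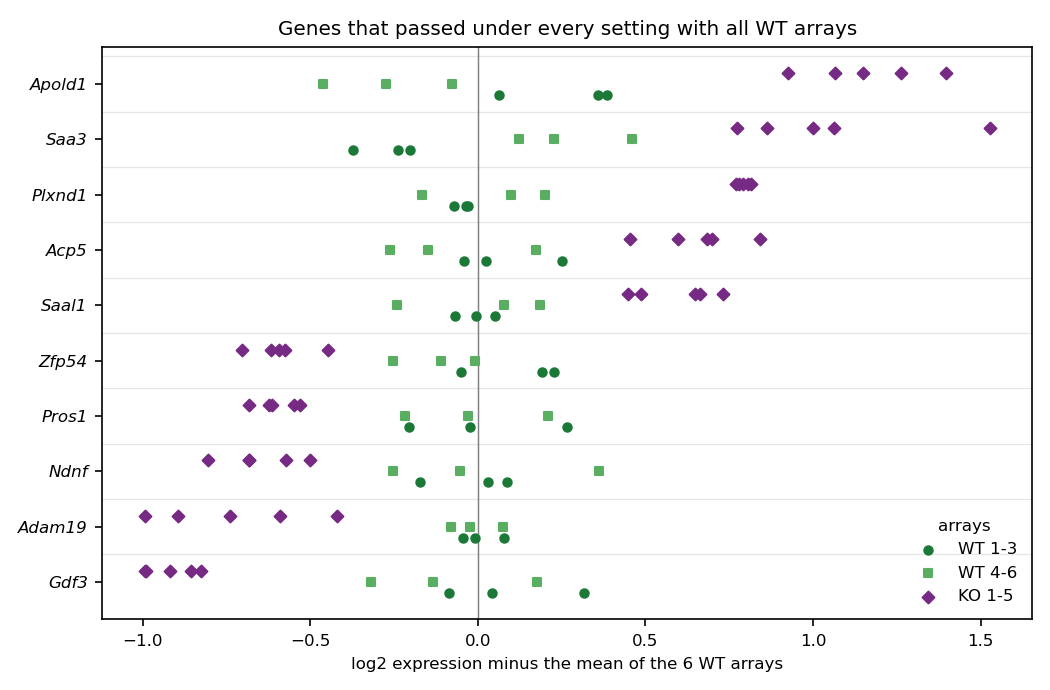
Log2 expression minus the mean of the 6 WT arrays for the 10 genes that passed under every setting tried for the difference with all WT arrays, 1 row per gene and 1 point per array, with WT replicates 1 to 3 as dark circles, WT replicates 4 to 6 as light squares and KO as purple diamonds. In each row the 5 KO arrays lie beyond all 6 WT arrays, below them for Gdf3, Adam19, Ndnf, Pros1 and Zfp54 and above them for Saal1, Acp5, Plxnd1, Saa3 and Apold1.

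Hebp1, a heme-binding protein and the source of a chemotactic peptide, had the largest difference of all genes that passed, 1.88 (3.68-fold, SE 0.21, adjusted p = 2.9e-07). It read 9.45, 9.48, 9.65, 9.49 and 9.59 in KO. The arrays labelled WT 1 to 3 read 6.97, 8.76 and 8.75, and WT 4 to 6 read 6.97, 7.01 and 7.46. The KO arrays were tightly grouped above all WT arrays, while WT replicates 2 and 3 lay between KO and the other 4 WT arrays. With the 11 arrays alone its difference over all WT did not pass (adjusted p = 0.065).

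Eps8, an actin-capping protein, read 10.44, 9.78, 10.55, 10.53 and 10.41 in KO and 10.89 to 11.26 in WT (median 11.05). The groups did not overlap, and KO replicate 2 was the lowest by far. Eps8 fell by 0.72 (SE 0.14, adjusted p = 0.0046). Other genes that fell against both sets included Nav2 (-0.54), Lmo4, a LIM-domain transcriptional adaptor (-0.55), Ppm1d, a phosphatase of the p53 pathway (-0.56), Polr2a, the catalytic subunit of RNA polymerase II (-0.50), and the kinase gene Stk11 (-0.51). Zfp87 fell by 0.75 (adjusted p = 0.0058), although WT replicate 6, at 7.20, lay among the KO arrays (7.02 to 7.37). Without WT replicate 5, Nav2, Lmo4, Ppm1d, Polr2a, Stk11, Zfp87 and Eps8 did not pass against both sets.

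Lipid handling is the known field of PPARγ, and its lists are read against the 1.88% of all genes that passed. None of the 6 PPAR and RXR receptor genes passed, and their differences ran from -0.01 (Ppara) to 0.17 (Rxrg), with a median of 0.10 against -0.02 over all genes. Of 10 coactivator and corepressor genes 1 passed, the acetyltransferase gene Ep300, which fell by 0.31 (adjusted p = 0.034) and did not pass against the arrays labelled WT 1 to 3 (adjusted p = 0.087). Of 26 genes of the list of PPAR targets in lipid uptake and storage, which also holds Gdf3, 1 rose (Fabp5) and 1 fell (Gdf3), with a median of -0.01.

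Fabp5, a carrier of fatty acids inside the cell, read 12.15, 12.01, 12.002, 11.76 and 11.67 in KO, 11.21, 11.58 and 11.35 on the arrays labelled WT 1 to 3, and 11.05, 10.19 and 11.12 on WT 4 to 6. All KO arrays lay above all WT arrays, and WT replicate 5 was the lowest. Fabp5 rose 1.78-fold, by 0.83 (SE 0.16, adjusted p = 0.0032), with 0.54 and 1.13 against the WT sets, and it passed against both sets without WT replicate 5 as well. Its relative Fabp4 read 8.73 to 9.53 in KO and 8.12 to 9.40 in WT (median 9.19), with a difference of 0.12 (SE 0.16, adjusted p = 0.78). Cd36, a fatty acid and lipoprotein receptor, read 10.55 to 11.26 in KO and 9.76 to 11.12 in WT (median 10.94), with a difference of 0.11 (SE 0.13, adjusted p = 0.74).

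For Fabp4 and Cd36 the groups overlapped widely, and WT replicate 4 was the lowest array. Angptl4, a secreted inhibitor of lipoprotein lipase, differed by -0.16 (SE 0.17, adjusted p = 0.69) and Plin2, a coat protein of lipid droplets, by 0.18 (SE 0.08, adjusted p = 0.25). The SEs of these 4 genes leave room for differences as large as those of several genes that passed. Slc27a1, a fatty acid transporter outside the list, read 10.01, 10.16, 10.22, 10.24 and 9.80 in KO and 9.05 to 9.81 in WT (median 9.62). Only KO replicate 5 reached the WT range, and Slc27a1 rose by 0.54 (SE 0.09, adjusted p = 0.00077), as a gene named after its values were seen.

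Of 18 genes of fatty acid oxidation 2 rose, the enoyl-CoA hydratase gene Echs1 by 0.74 (adjusted p = 0.0046) and the thiolase gene Acaa2 by 0.43 (adjusted p = 0.042), with a list median of 0.13. Acaa2 did not pass against WT 4 to 6 (adjusted p = 0.21), and 1 of the 18 genes rose when WT replicate 5 was left out. Of 21 genes of sterol and fatty acid synthesis 1 fell, Acaca, the carboxylase of the first step of fatty acid synthesis, by 0.26 (adjusted p = 0.040), without passing against WT 4 to 6 (adjusted p = 0.16). None of 10 LXR target and cholesterol export genes passed with all WT. Apoe, one of them, had 0.44 (adjusted p = 0.058), with WT replicate 5 at 11.37. Against the arrays labelled WT 1 to 3, Abcg1 alone passed (-0.755, adjusted p = 0.00014), where 5.36% of all genes fell. Against WT 4 to 6, 2 rose and 1 fell, where 1.13% and 1.27% of all genes did. These were Abca1 (0.53), Apoe (0.57) and Lpcat3 (-0.32), with adjusted p = 0.035, 0.032 and 0.024.

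The lysosome and MF maturation genes that passed were all higher in KO. Of 22 lysosome and cathepsin genes 5 rose and 0 fell, against 1.09% and 0.787% of all genes, with a median of 0.19. Against the arrays labelled WT 1 to 3, 5 rose, where 5.93% of all genes did, and against WT 4 to 6, 9 rose, where 1.13% did. None fell in either. Ctsh, a cysteine protease, read 11.55, 11.58, 11.41, 11.52 and 11.45 in KO, 10.92, 10.83 and 10.81 on the arrays labelled WT 1 to 3, and 11.35, 10.07 and 11.27 on WT 4 to 6.

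All KO arrays of Ctsh lay above all WT arrays, by a narrow margin over WT replicates 4 and 6, and it rose by 0.63 (SE 0.13, adjusted p = 0.0047). Atp6v0d1, a subunit of the proton pump that acidifies lysosomes, read 10.99 to 11.20 in KO and 10.50 to 10.79 in WT (median 10.72), and rose by 0.37 (adjusted p = 0.0083). These 2 genes passed against both sets, but without WT replicate 5 neither passed against WT 4 and 6 (adjusted p = 0.53 and 0.23). Ctsl rose by 0.47, Gaa by 0.35 and Ctsd by 0.34 (adjusted p = 0.018, 0.036 and 0.038), each without passing against the arrays labelled WT 1 to 3. The count was 4 of 22 when WT replicate 5 was left out.

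Of 13 maturation genes 2 rose and 0 fell, against 1.09% and 0.787% of all genes, with a median of 0.30. Against the arrays labelled WT 1 to 3, 4 rose, where 5.93% of all genes did. Against WT 4 to 6, 6 rose, where 1.13% did, and 0 fell in either. Trem2, a lipid-sensing receptor of tissue MFs, read 11.12, 11.20, 10.995, 10.83 and 10.50 in KO, 10.19, 10.23 and 10.01 on the arrays labelled WT 1 to 3, and 10.68, 9.92 and 10.42 on WT 4 to 6. Only KO replicate 5 lay within the WT range, below WT replicate 4. Trem2 rose 1.61-fold, by 0.69 (SE 0.13, adjusted p = 0.0038). Gpnmb, a glycoprotein of phagocytic MFs, read 12.58 to 12.67 in KO and 11.88 to 12.41 in WT (median 12.34), and rose by 0.36 (adjusted p = 0.0041). Leaving out WT replicate 5, 3 of the 13 genes rose with all WT. Gpnmb then passed against both sets, while Trem2 did not pass against WT 4 and 6 (adjusted p = 0.50).

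Of 17 alternative activation genes 3 rose: Arg1, the arginase of these cells, by 0.72 (adjusted p = 0.028), Trem2, which both lists hold, and Clec7a, the β-glucan receptor dectin-1, by 0.39 (adjusted p = 0.023). The list's median was 0.00. For this list and the others here, 1.09% of all genes rose and 0.787% fell with all WT arrays. Arg1 and Clec7a did not pass against WT 4 to 6 (adjusted p = 0.077 and 0.13). Of 15 matrix remodelling genes 2 rose, Plau, the urokinase gene, by 0.59 (adjusted p = 0.020) and Mmp14 by 0.31 (adjusted p = 0.042), and of 19 glycolysis and hypoxia genes 1 rose, the hexokinase gene Hk1 by 0.29 (adjusted p = 0.024). Plau and Mmp14 did not pass against WT 4 to 6 (adjusted p = 0.20 and 0.45), while Hk1 passed against both sets but not with all WT when WT replicate 5 was left out. Of 16 efferocytosis and C1q genes 1 fell with all WT arrays, Pros1. Against WT 4 to 6, 3 rose, where 1.13% of all genes did, and against the arrays labelled WT 1 to 3, 0 rose. The 3 were C1qa by 0.91, C1qb by 0.45 and C1qc by 0.885 (adjusted p = 0.0086, 0.011 and 0.00026). Of 19 growth and repair factors 1 fell, Gdf3, while Igf1 read 7.48 to 8.82 in KO and 7.58 to 8.76 in WT (median 7.74), with a difference of 0.27 (SE 0.17, adjusted p = 0.45).

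Cytokine and chemokine genes passed mainly against the arrays labelled WT 1 to 3. Of 22 inflammatory cytokine and chemokine genes, 2 rose with all WT arrays, where 1.09% of all genes rose. Against the arrays labelled WT 1 to 3, 10 rose, where 5.93% of all genes did, and 0 passed against WT 4 to 6. The list's median was 0.29 with all WT arrays, 0.44 against the arrays labelled WT 1 to 3 and 0.11 against WT 4 to 6. Without WT replicate 5, 3 rose with all WT. Ccl4, a chemokine that draws monocytes and T cells, read 11.33, 10.98, 11.16, 11.35 and 11.18 in KO, 9.27, 9.33 and 9.12 on the arrays labelled WT 1 to 3, and 10.56, 10.80 and 11.31 on WT 4 to 6.

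WT replicate 6 lay among the KO arrays of Ccl4. The difference was 1.13 with all WT arrays (SE 0.29, adjusted p = 0.033), 1.96 against the arrays labelled WT 1 to 3, and 0.31 (adjusted p = 0.65) against WT 4 to 6. Ifnb1, the gene of interferon-β, differed by 2.61 against the arrays labelled WT 1 to 3 (adjusted p = 3.5e-06) and by 0.08 against WT 4 to 6 (adjusted p = 0.96), and did not pass with all WT (1.35, adjusted p = 0.087). Ccl3 rose by 0.22 (adjusted p = 0.049), again without passing against WT 4 to 6.

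Of 18 immediate early and heat shock genes 3 rose with all WT arrays, Fosb by 0.50, Jund by 0.50 and Dusp1 by 0.45 (adjusted p = 0.024, 0.042 and 0.049), where 1.09% of all genes rose. Against the arrays labelled WT 1 to 3, 7 rose and 1 fell, where 5.93% and 5.36% of all genes did, and against WT 4 to 6, 1 rose, where 1.13% did. The list's median was about as large against either set, 0.34 and 0.38, and was 0.34 with all WT arrays. With WT replicate 5 left out, 0 of the 18 passed with all WT. These are genes that cells switch on within a short time of a stimulus.

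Markers of other cells moved with the WT sets. Of 10 endothelial genes 5 fell with all WT arrays (Emcn, Cdh5, Flt1, Pecam1 and Tek), against 0.787% of all genes. Against the arrays labelled WT 1 to 3, 7 fell, where 5.36% of all genes fell, and against WT 4 to 6, 0 passed. Without WT replicate 5 the count with all WT was 5 as well. The mean level of the list was 6.79 to 6.96 on the KO arrays, 7.25 to 7.41 on the arrays labelled WT 1 to 3, and 6.83 to 7.09 on WT 4 to 6. Its members' levels lay between percentiles 24.7 and 74.3 of all genes.

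Of 9 fibroblast genes 1 fell with all WT arrays, Dcn, and 6 fell against the arrays labelled WT 1 to 3, with 0 passing against WT 4 to 6. Of all genes, 0.787% fell with all WT arrays and 5.36% against the arrays labelled WT 1 to 3. When WT replicate 5 was left out, 2 fell with all WT. Their mean level was 6.35 to 6.62 in KO, 6.83 to 7.20 on the arrays labelled WT 1 to 3 and 6.42 to 6.65 on WT 4 to 6. Among the 12 largest falls with all WT arrays were genes of vessel wall and matrix. Igfbp7 read 7.32, 7.63, 7.08, 7.14 and 7.86 in KO, 9.53, 9.37 and 9.30 on the arrays labelled WT 1 to 3, and 7.37, 7.28 and 8.92 on WT 4 to 6.

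The arrays labelled WT 1 to 3 and WT replicate 6 were the high ones of Igfbp7, whose difference was -1.22 with all WT arrays (SE 0.32, adjusted p = 0.035), -1.996 and -0.45 against the sets. Emcn (-0.80), Cav1 (-0.81), Tm4sf1 (-0.79), Adgrl4 (-0.72) and Dcn (-0.72) likewise fell with all WT arrays and did not pass against WT 4 to 6. In bulk samples fewer cells of a type and less RNA per cell cannot be told apart, and the part of other cells in these falls was not tested. The plot of list levels sets these lists beside the lysosome and maturation lists, whose levels run higher in KO than in both WT sets save for KO replicate 5.

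**Figure D3:**
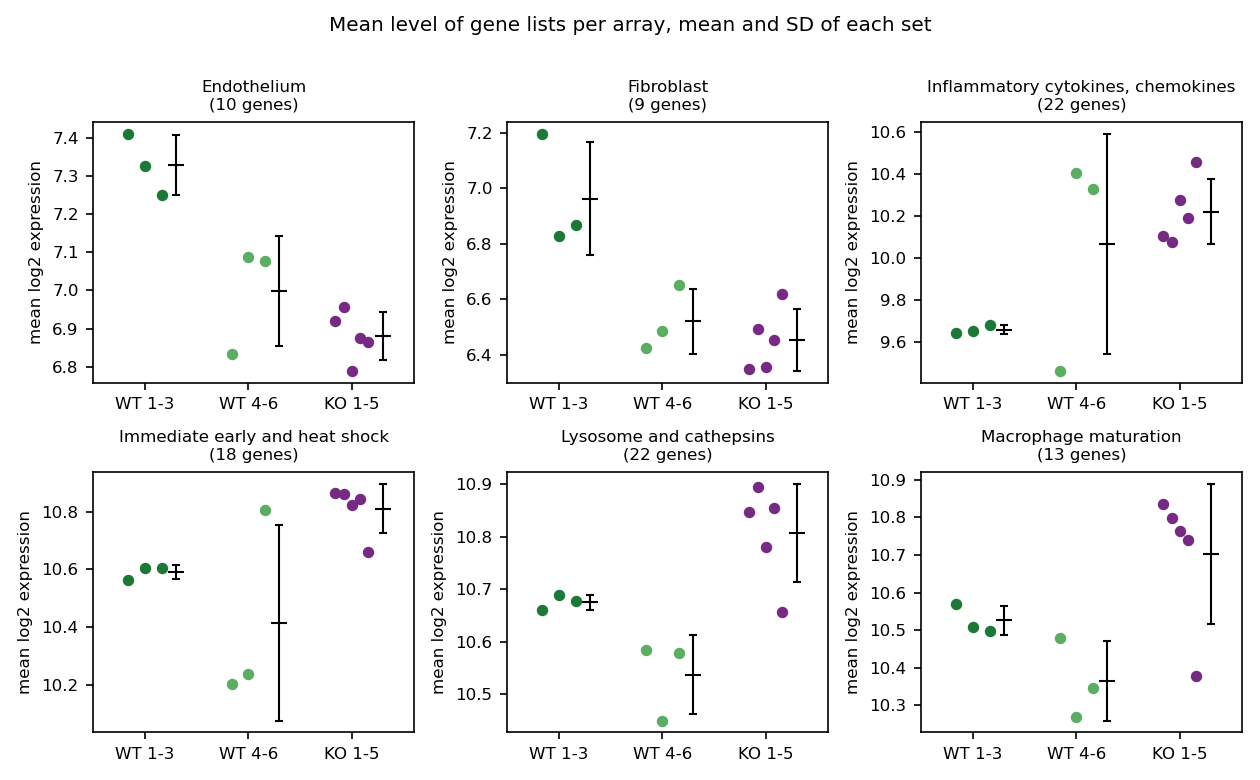
Mean log2 expression of 6 gene lists on each array, 1 point per array in WT replicates 1 to 3, WT replicates 4 to 6 and KO replicates 1 to 5, with the mean and SD of each set beside the points and the number of genes in each title. Endothelial and fibroblast levels are highest on the arrays labelled WT 1 to 3 (7.25 to 7.41 and 6.83 to 7.20), cytokine levels are low there and on WT replicate 4, and lysosome and maturation levels are highest on KO replicates 1 to 4.

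None of the genes of the interferon response (21), MHC class II (10), cell cycle (30), monocyte identity (14), oxidative phosphorylation (18) and iron handling (13) passed with all WT arrays. Nor did markers of neutrophils (15), muscle fibres (14), myoblasts (8), T and NK cells (11), B cells (7), eosinophils and mast cells (10) or erythroid cells (3). In the MHC class II list, H2-Ab1 and H2-Eb1 fell against the arrays labelled WT 1 to 3 (adjusted p = 0.012 and 0.015), where 5.36% of all genes fell. Against WT 4 to 6, 0 of that list passed. The oxidative phosphorylation list had a median of 0.20 with all WT arrays, and 6 of its genes rose and 1 fell against the arrays labelled WT 1 to 3 (5.93% and 5.36% of all genes) while 3 rose against WT 4 to 6 (1.13%). The interferon list had a median of 0.26 with all WT arrays, and of 0.20 and 0.28 against the sets, with 1 gene higher against each, beside a median of -0.02 over all genes with all WT arrays. Of 10 dendritic cell markers 1 fell, where 0.787% of all genes did. It was Xcr1, by 0.40 (adjusted p = 0.045), without passing against WT 4 to 6 (adjusted p = 0.25). Ccr2, Cx3cr1 and Adgre1, which mark arriving and maturing MFs, differed by -0.03, -0.07 and 0.00.

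Genes around the altered alleles were read in gene order, since they are inherited with them. Of the 50 measured genes nearest to Pparg on chromosome 6, 2 passed, Plxnd1 with 8 genes between and Brk1, a regulator of actin assembly, which rose by 0.34 (adjusted p = 0.039). Of the 50 nearest to Lyz2, 2 passed, Lyz1 and Mdm1, which rose by 0.55 (adjusted p = 0.0038). Gdf3, Apold1, Hebp1, Fam234b, Eps8, Ndnf, Gpnmb and Rnf181 also lie on chromosome 6. There are 76 genes between Pparg and Gdf3 and 262 between Pparg and Hebp1, while Hebp1 and Fam234b are adjacent and 3 genes separate Hebp1 from Apold1. On chromosome 6, 26 of 1099 genes passed (2.37%) and 9 passed against both sets (0.819%), against 1.88% and 0.421% of all genes. Of the 12 that also passed against both sets without WT replicate 5, Gdf3, Plxnd1, Apold1, Hebp1 and Gpnmb lie there.

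The same genotype contrast at day 1 and day 4 uses other arrays, with 4 KO and 4 WT at each day, and all of those WT arrays read Lyz2 high. At day 1, 7 genes passed (0.0351%), and all 7 were among the 84 of day 2: Gdf3, Fam234b, Plxnd1, Saa3, Apold1, Lyz1 and Hebp1. Of these 7, Gdf3, Fam234b, Plxnd1, Apold1 and Hebp1 lie on the chromosome of Pparg, and Lyz1 is next to Lyz2. At day 4, 13 passed (0.0652%), of which Gdf3, Plxnd1, Apold1 and Lyz1 were among the 84 and Strap among the 374. Mbd4 and Depp1, which lie 6 and 21 genes from Pparg, passed at day 4 (adjusted p = 0.012 and 1.15e-05) and not at day 2. Of the 84 genes, 51 (60.7%) had the same sign at day 1 and 36 (42.9%) at day 4, against 46.2% and 49.5% of all genes for their sign at day 2.

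Gdf3 was -1.17 at day 1, -0.92 at day 2 and -1.59 at day 4 in Ly6C+ MFs, and -1.22 in Ly6C- MFs of day 2, where 40 genes passed (0.201%). Plxnd1 was 0.95, 0.79 and 0.69 over the days and 0.42 in Ly6C- MFs. Apold1 was 0.77, 1.16 and 0.78 over the days and 1.30 in Ly6C- MFs. These 3 genes passed in all 4 conditions, and none had an interaction with day or subset that passed. All 3 lie on the chromosome of Pparg, whose floxed allele the KO label names. What is inherited with that allele was not tested apart from the loss of the receptor. The Ly6C- contrast also uses arrays labelled WT 1 to 3 with low Lyz2 (mean 9.18, against 12.86 on WT 4 to 6).

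Saa3 was 1.22, 1.05 and 0.35 over the days and 1.34 in Ly6C- MFs, and did not pass at day 4. Hebp1 was 2.41, 1.88 and 0.44 over the days and 0.81 in Ly6C- MFs, and passed at days 1 and 2. For neither gene did the difference between days pass.

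Acp5 was 0.02 at day 1 and 0.06 at day 4, against 0.66 at day 2, and the change in its genotype difference passed for both days (0.63, SE 0.11, adjusted p = 0.017, and 0.60, SE 0.11, adjusted p = 0.039). Fabp5, Trem2 and Ctsh had -0.09, 0.20 and 0.00 at day 1 and 0.09, 0.03 and -0.03 at day 4. Their interactions with day did not pass (adjusted p from 0.20 to 0.48), so a difference between the days is not shown for them.

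**Figure D4:**
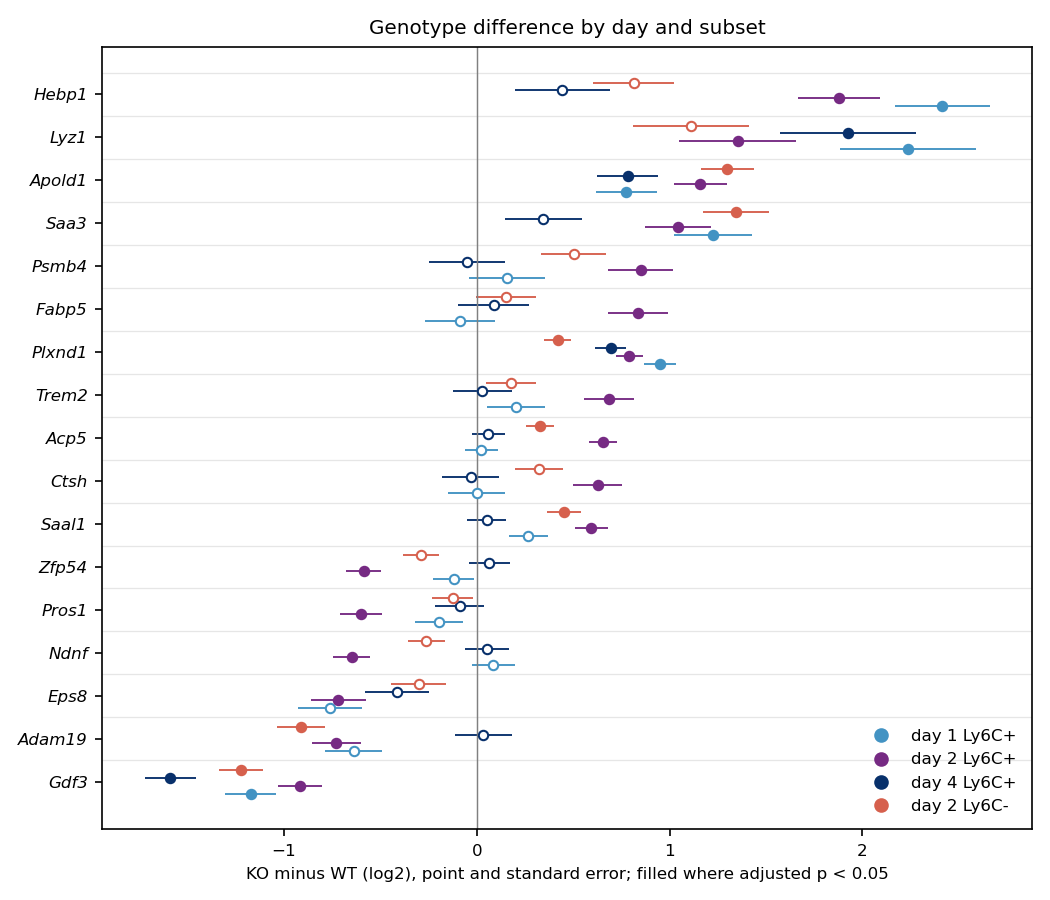
KO minus WT (log2) of 17 genes at day 1, day 2 and day 4 in Ly6C+ MFs and at day 2 in Ly6C- MFs, as a point with its standard error, filled where the adjusted p was below 0.05. Gdf3, Plxnd1 and Apold1 are filled in all 4 conditions, while Fabp5, Trem2, Ctsh, Psmb4, Ndnf, Pros1, Zfp54 and Eps8 are filled at day 2 Ly6C+ alone.

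Promoters were searched for the PPAR response element because these members share a genotype contrast. RefSeq's table (GRCm38.p6) holds the 250 bases before and 50 after the start for 64 of the 84 genes, as 88 promoters. The element, a direct repeat of AGGTCA with any 1 base between the copies, was searched on both strands and was in 0 of the 88, as against 13 of all 32851 promoters (0.0396%). The single half-site AGGTCA was in 16 of the 88 (18.2%), in 14.2% of the promoters of all genes measured and in 16.3% of all promoters in the table, a share that counts the full element too. The full element is so rare that 0 of 88 was likely whatever the receptor binds, so the count does not bear on binding. Sites outside these stretches and imperfect repeats were not searched. Gdf3 was not in the table.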

How the data were processed

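RNA of 44 one-colour Affymetrix mouse gene arrays in 10 groups was analysed. The authors made the deposited log2 values with RMA; the sources used here give neither its version nor the probe set definition. They were used as deposited. Of 35556 probe sets, 21789 carry 1 symbol in the platform annotation, and 1621 with several and 12146 without one were left out. The brightest probe set stood for each of 999 genes with several, giving 19938 genes. Array medians ran from 6.64 to 6.77 over the 44 arrays and from 6.70 to 6.77 over the compared arrays, and no arrays were identical.

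A mean per group was fitted over all 44 arrays with limma 3.58.1 (lmFit, eBayes) in R 4.3.3, with 34 residual degrees of freedom. For the WT sets, 12 means were fitted, with the WT day 2 groups of both subsets split into replicates 1 to 3 and 4 to 6. The procedure was tested on simulated data in which the WT sets shared a mean, so that test does not cover the split between them. Lists are described by counts and medians beside all genes, with no set test. Members and lists were chosen with earlier results of these data known. Genes named by rule were the 12 largest rises and falls with all WT arrays and against both sets, the passing members of each list (up to 4, or the largest difference), the passing genes among 25 neighbours on each side of Pparg and Lyz2, and always Adgre1, Angptl4, Ccr2, Cd36, Cx3cr1, Fabp4, Gdf3, Igf1, Lyz1, Lyz2, Plin2, Pparg and the Ly6c probe sets. Predicted genes were not named. Other genes were named after their values were seen. Gene order, promoters and the probe annotation came from RefSeq tables (GRCm38.p6) and the platform table. Alternatives were the arrays fitted, scaling, probe set choice, variance model, array weights, a fold limit, a replicate block and leaving out arrays.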

Additional observations from a re-analysis of the deposited data

Results flagged for a closer look

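In 20 of 176 groups of named genes (11.4%), 1 array lay far from the others of its group by Dixon's ratio, where chance gives about 1 in 20. WT replicate 5 was that array in 8 of them. It was the lowest WT array for Apoe (11.37), Atp5a1 (9.91), Atp6v0d1 (10.5), Ctsl (11.1), Jund (8.75) and Slc48a1 (9.54), and the highest for Ccne2 (7.42) and Rbbp6 (10.68). WT replicate 4 was the lowest for Cd36 (9.76), Fabp4 (8.12), Gpnmb (11.88) and Lmo4 (9.22), and WT replicate 6 was the highest for Clec7a (11.18) and Csrnp1 (11.21). Among the KO arrays, Cav1 was highest on replicate 5 (7.76) and Cd40 on replicate 3 (9.65), while Eps8 was lowest on replicate 2 (9.78), Flt1 on replicate 3 (6.83), Lyz1 on replicate 4 (12.09) and Snora44 on replicate 3 (7.47).

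The genotype difference at day 2 differed from that of another condition for 9 genes by the interaction test over all genes, of which 5 also passed at day 2. It exceeded that of day 1 by 0.63 for Acp5 and by 0.73 for Pf4, the gene of platelet factor 4. It exceeded that of day 4 by 0.60 for Acp5, 0.66 for Fam234b and 0.73 for Bach2os, and was below it for Cav1 (-1.26). Of the 4 that did not pass at day 2, Lrrc39 (0.49) and Siglech (-0.96) differed from day 4, and Cmbl (1.21) and Tppp3 (1.01) from the Ly6C- subset.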

How the results depend on the processing

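Counts are of genes passing with all WT arrays unless stated. With only the 11 arrays, 13 passed, 1072 against WT 1 to 3, 27 against WT 4 to 6, 1094 between the WT sets and 10 against both sets. With array weights these were 2123, 4077, 52, 1334 and 23. Other values were 3008 with WT 1 to 3 alone, 870 with separate means for the sets, 59 (17 against both sets) with a 1.5-fold limit, and 503 with separate means without WT replicate 5, an alternative chosen after seeing the data. Leaving out 1 array gave 104 (without KO replicate 2) to 1160 (without WT replicate 4) with all WT, 1435 to 2719 against WT 1 to 3, 38 (without WT replicate 5) to 1573 (without WT replicate 4) against WT 4 to 6, 1611 to 3067 between the sets, and 13 (without WT replicate 5) to 328 (without WT replicate 4) against both. Replicate numbers do not pair the arrays (r from -0.076 to 0.157 between same-numbered KO and WT arrays), and a replicate block left 47 genes, against 73 for the same 10 arrays without it. Centring on array medians, a second quantile normalization, dropping the dimmest 25% of genes, averaging probe sets and a trended, robust variance kept all these counts within 1.5 times. Lyz2 was the only named gene with a call in the direction opposite to its reported value, at 0.62 with WT 1 to 3 alone (adjusted p = 0.0012); named genes near 0 that did not pass, such as Adgre1, Ccr2, Cx3cr1, Cd36 and Fabp4, changed sign when 1 array was left out. The causes were not tested.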

Other observations

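Proteasome subunits were read after their values had been seen, since Psmb4, Psmb6, Psma6 and Psmc4 were among the genes higher in KO against both WT sets. Of 39 measured subunit genes 6 rose and 0 fell with all WT arrays, 4 of them against both sets, with a median of 0.17, where 1.09% and 0.787% of all genes rose and fell and 0.301% were higher against both sets. Psmb4 rose by 0.85 (adjusted p = 0.0046) and Psmb6 by 0.60 (adjusted p = 0.00051). Without WT replicate 5, Psmb6 passed against both sets as well. Psmb4, Psma6 and Psmc4 then did not pass against WT 4 and 6 (adjusted p = 0.50, 0.52 and 0.39). The mean level of the 39 genes was 9.59 to 9.74 on the KO arrays and 9.39 to 9.59 on the WT arrays, with KO replicate 3 and WT replicate 4 at the same level. WT replicate 5 was the lowest array. Against the arrays labelled WT 1 to 3, 11 rose and 3 fell (5.93% and 5.36% of all genes), and against WT 4 to 6, 5 rose (1.13%).

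Other large rises with all WT arrays passed against 1 set or neither. Mir29a, a microRNA gene, rose by 0.82 (adjusted p = 0.038) and passed against WT 4 to 6 (1.13). Id3, an inhibitor of helix-loop-helix transcription factors, rose by 0.95 (adjusted p = 0.027) and passed against the arrays labelled WT 1 to 3 (1.13).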
